A study of Homo sapiens with 3 samples.

Results

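Sites where p63 and ZNF148 peaks overlapped but reached their maxima at different positions were examined in FaDu cells, a line established from a squamous cell carcinoma of the pharynx. In chromatin immunoprecipitation followed by sequencing (ChIP-seq), an antibody recovers the DNA bound by a protein, and a peak caller marks the intervals where that DNA piles up, each with a summit at its highest point. A p63 peak was taken as offset when it shared at least 1 bp with a ZNF148 peak and its summit lay more than 25 bp from the nearest ZNF148 summit. This held for 1654 of 21520 p63 peaks, or 7.69% (95% Wilson interval 7.34 to 8.05%), and for 36.3% (34.9 to 37.7%) of the 4560 p63 peaks that overlapped ZNF148 at all. The other 2906 overlapping p63 peaks, with summits 25 bp or less apart, are called coincident here, and 16960 p63 peaks overlapped no ZNF148 peak.

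All 3 samples came from untreated FaDu cells with no genetic change named in the labels. They were an input library made without antibody, a library made with an antibody against ΔNp63α and a library made with an antibody against ZNF148. Per the labels the purified DNA came from 3 separate ChIP assays, but each antibody had a single peak list. Replicate error is therefore unknown for every value, and no difference was tested. Wilson intervals on shares and order-statistic intervals on medians are at 95%. They take peaks as independent and account for nothing but counting error. Read numbers per peak and per library are unknown from these lists.

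ΔNp63α is the N-terminally shortened form of p63, a member of the p53 family of transcription factors. It maintains the basal cells of stratified epithelia, is abundant in squamous carcinomas and often binds enhancers far from genes. ZNF148, also called ZBP-89, is a zinc finger protein that recognises GC-rich DNA and is known from promoters as both an activator and a repressor. The title of the series states that both cooperate in head and neck squamous cell carcinoma, and the distance between their summits bears on how closely they sat on the same stretch of DNA. Positions are hg19 and 1-based. A genome sequence or gene annotation of that build was not used here, so sites are given by position, without gene names or sequences.

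The offset sites formed the outer part of one continuous range of summit distances. Their median distance was 74 bp (70 to 78), with quartiles of 42 and 138 bp and a maximum of 895 bp. By distance, 550 were up to 50 bp apart, 481 were over 50 and up to 100 bp apart, 423 were over 100 and up to 200 bp apart and 200 were farther apart. Counted per base of distance, overlapping p63 peaks fell from 160.2 per bp within 5 bp to 48.6 per bp at 21 to 25 bp. They reached 33.2 per bp at 26 to 30 bp, 13.2 per bp at 46 to 50 bp, 5.32 per bp over 100 and up to 150 bp, and 0.265 per bp over 300 and up to 500 bp. No gap separated both sides of the limit. The 243 peaks just inside it, at 21 to 25 bp, had a median p63 fold of 24.3 and a median ZNF148 fold of 20.8, against 18.3 and 19.5 for the 166 peaks just outside it, at 26 to 30 bp. The ZNF148 summit lay towards the start of the chromosome at 804 offset sites and towards its end at 850, a share of 51.4% (48.98 to 53.8%) for the latter. Neither side was preferred beyond the counting error, which for sites of unknown strand says nothing on their orientation to each other.

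**Figure D1:**
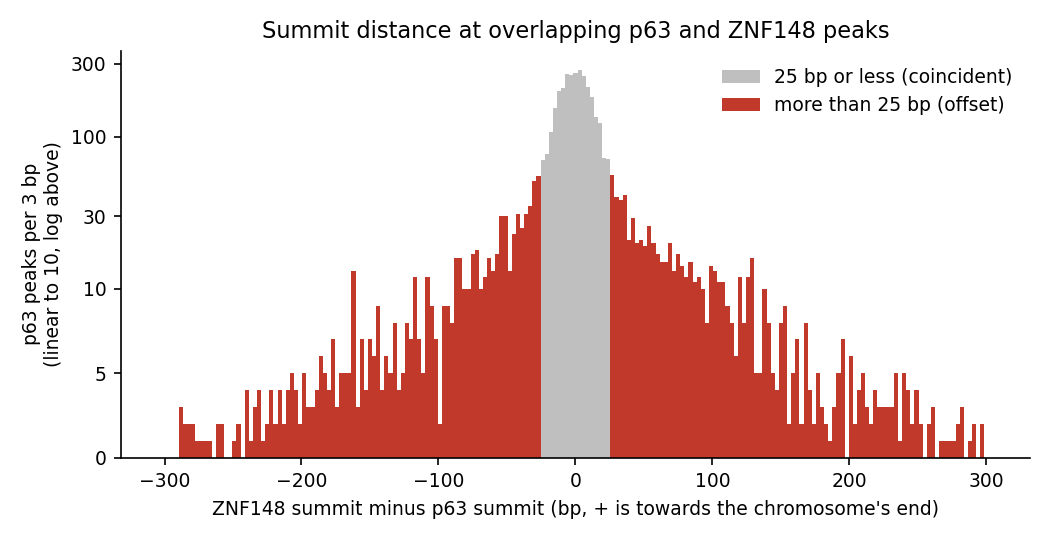
Number of overlapping p63 peaks per 3 bp of signed distance from the p63 summit to the nearest ZNF148 summit, in bp, on a vertical axis that is linear to 10 and logarithmic above. Grey bars are the 2906 coincident peaks and red bars the offset peaks up to 300 bp; the counts decline on both sides without a break at the limit of 25 bp.

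Most offset summits still lay within the interval of the other protein. At 1094 of the 1654 sites, or 66.1% (63.8 to 68.4%), each summit lay inside the other protein's peak. Only the p63 summit lay inside the ZNF148 peak at 180 sites, and only the ZNF148 summit lay inside the p63 peak at 103. At the remaining 277 sites, 16.7% (15.03 to 18.6%), neither summit was covered by the other peak, and the intervals met at their flanks with a median overlap of 65 bp. These shares are tied to distance by construction. Both summits were covered at 548 of the 550 sites up to 50 bp apart and at 436 of the next 481, up to 100 bp. They were covered at 106 of the 423 sites up to 200 bp apart and at 4 of the 200 beyond. The shortest peaks in these classes were 149 bp for p63 and 150 bp for ZNF148.

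The intervals were mostly shifted against each other and not nested. Neither peak held the other at 1217 offset sites, 73.6% (71.4 to 75.7%), against 904 of the 2906 coincident sites, 31.1% (29.4 to 32.8%). A p63 peak lay wholly inside the ZNF148 peak at 320 offset sites and a ZNF148 peak wholly inside the p63 peak at 117. The median overlap was 178 bp, which covered 72.5% of the p63 peak and 65.9% of the ZNF148 peak on the median. Of the offset p63 peaks, 1642 overlapped a single ZNF148 peak and 12 overlapped 2. The nearest ZNF148 summit belonged to the overlapping peak at 1651 sites and to another peak at 3.

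Some intervals held several summits, of which only the most significant was used. This applied to the p63 or the ZNF148 interval of 130 offset sites. The ZNF148 interval had several summits at 5.26% of offset sites (4.28 to 6.44%) and at 0.723% of coincident sites (0.473 to 1.10%), and the share was 23% (17.7 to 29.3%) where the summits were over 200 bp apart. When every summit was considered, 17 of the 1654 sites had a pair of summits 25 bp or less apart, so few offset sites owed their class to the choice of a summit.

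Fold enrichment, the peak caller's ratio over local background at the summit, was lower at offset than at coincident sites in both lists. The p63 fold was higher than in the p63 peaks without ZNF148. The ZNF148 fold was higher than in the whole ZNF148 list, which includes the overlapping peaks. For p63 the median was 16.8 (15.9 to 17.7), with quartiles of 9.74 and 30.9, against 31.8 (30.9 to 32.7) at coincident sites and 11.7 in p63 peaks without overlap. For ZNF148 the median was 14.4 (13.8 to 15.2), with quartiles of 8.96 and 24.1, against 31.02 (30.3 to 32.0) at coincident sites and 9.83 in the whole ZNF148 list. A p63 fold of 10 or more was reached at 1231 offset sites, 74.4% (72.3 to 76.5%), where 65.1% of all p63 peaks reached it. A ZNF148 fold of 10 or more was reached at 1168, 70.6% (68.4 to 72.8%), where 49.6% of all ZNF148 peaks did. On each of the 23 chromosomes both medians were lower at offset than at coincident sites. The peaks were chosen by overlap, and p63 folds rose with peak length (Spearman's rho 0.81 across the 1654 offset peaks, which are not replicates), so these folds are a description of the sites and not a test. Offset p63 peaks had a median length of 261 bp and their ZNF148 peaks of 286 bp, against 293 and 344 bp at coincident sites.

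The strength of one protein told little of the strength of the other. Across the offset sites the rank correlation of p63 and ZNF148 folds was 0.17, against 0.75 across the coincident sites. It declined with distance, from 0.35 over the 550 sites up to 50 bp apart to 0.22 over the 481 up to 100 bp, 0.02 over the 423 up to 200 bp and −0.19 over the 200 beyond. Just inside the limit it was 0.55 over 243 sites and just outside 0.46 over 166. All points come from the same pair of libraries. The larger the distance, the farther the intervals must reach from their summits to overlap, and p63 folds rose with peak length. Whether this selection accounts for the decline with distance was not tested. The folds lay within 2-fold of each other at 59.3% of offset sites (56.9 to 61.6%) and at 90.3% of coincident sites (89.2 to 91.3%). The p63 fold was at least 2 times the ZNF148 fold at 416 offset sites, 25.2% (23.1 to 27.3%), and at most 0.5 times it at 258, 15.6% (13.9 to 17.4%). At coincident sites those shares were 4.34% and 5.37%. Folds from separate libraries also carry any difference in depth and background between them.

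**Figure D2:**
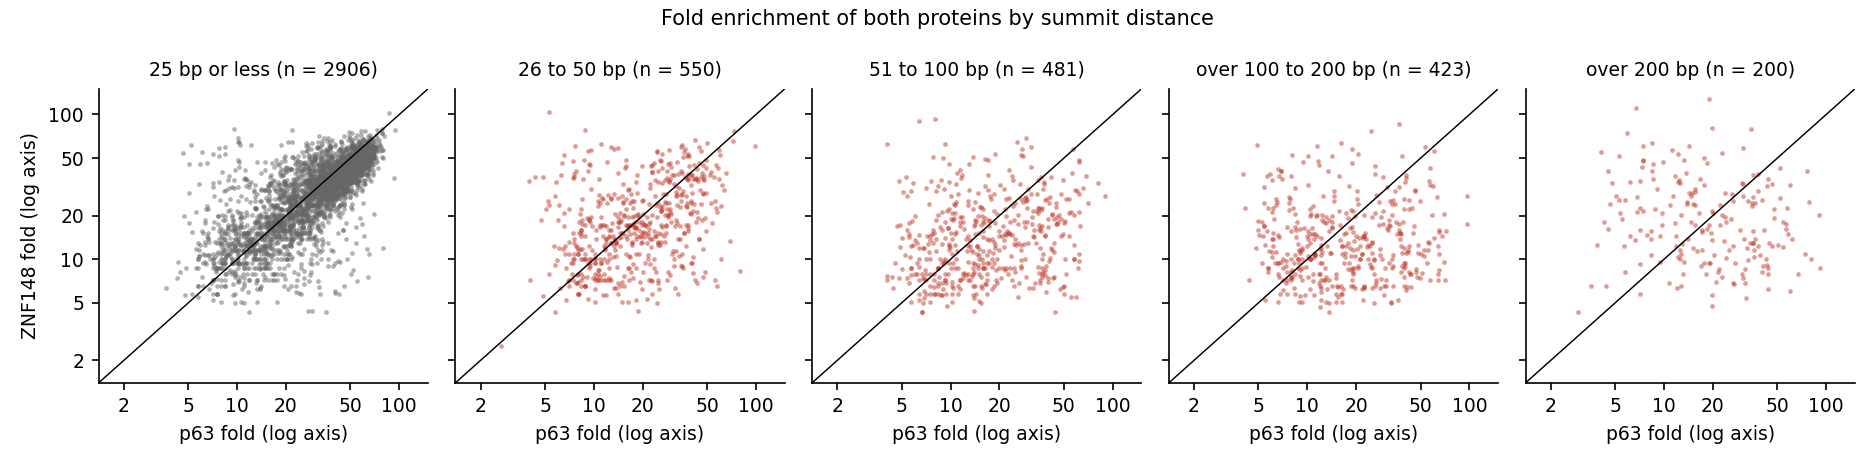
ZNF148 fold against p63 fold on logarithmic axes, 1 point per overlapping p63 peak, in 5 classes of summit distance, with the line of equal folds. The 2906 coincident sites (grey) gather along the line, and the offset sites (red) spread away from it as distance grows, with rank correlations from 0.35 up to 50 bp to −0.19 beyond 200 bp. The overlap rule itself ties distance to how far the intervals reach from their summits.

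The p63 fold changed little with distance within the offset sites. In the 4 classes of rising distance the median p63 fold was 17.8 (16.5 to 19.8), 15.6 (14.4 to 16.98), 16.1 (14.1 to 18.5) and 18.4 (15.4 to 21.6), and these intervals overlap. The median ZNF148 fold was 17.1 (15.8 to 18.0), 13.0 (12.1 to 14.4), 11.9 (11.1 to 13.0) and 17.4 (15.1 to 20.8) in the same order. It was therefore lowest at intermediate distances. The ZNF148 peaks of the most distant class were also the longest, with a median of 374 bp against 267 to 294 bp in the other classes. Intervals must be long to overlap at such distances, so this length is tied to the selection. Whether the ZNF148 fold of that class follows from the same selection was not tested. Where neither summit was covered by the other peak, the ZNF148 median was 10.8 (10.1 to 11.9) and the p63 median 15.5 (13.9 to 18.1).

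The offset share changed less across classes of peak strength than the coincident share did. When p63 peaks were divided by q value into 10 classes of 2152, the offset share declined from 11.2% (9.94 to 12.6%) in the strongest class to 6.13% (5.20 to 7.23%) in the weakest. The coincident share declined from 45.7% (43.6 to 47.8%) to 2.23% (1.69 to 2.94%) over the same classes. Offset sites were thus 19.7% of the overlaps in the strongest p63 class and 73.3% in the weakest. Over the ZNF148 classes the peaks with an offset p63 partner declined from 7.23% (6.45 to 8.10%) to 1.87% (1.49 to 2.36%), and those with a coincident partner from 38.8% (37.2 to 40.3%) to 0.502% (0.321 to 0.782%). When each overlap was placed by the weaker rank of its 2 peaks, offset sites made up 6.95% (5.52 to 8.72%) of the 978 pairs in which both peaks belonged to the top 10% of their lists. They made up 69.7% (66.0 to 73.1%) of the 630 pairs in which a peak ranked in the last 25%. Median peak length also fell from the strongest to the weakest class, from 331 to 160 bp for p63 and from 384 to 163 bp for ZNF148. Whether these lengths account for the shares by class was not tested.

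**Figure D3:**
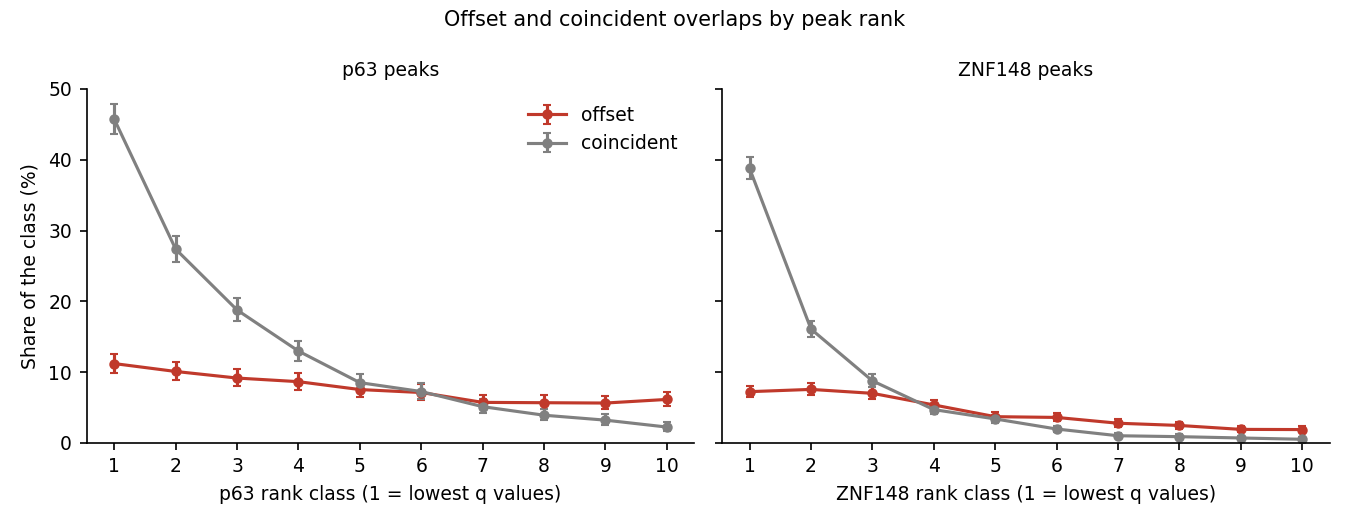
Share of p63 peaks (left) and ZNF148 peaks (right) with an offset (red) or coincident (grey) partner, in percent, in 10 classes of q value from strongest (1) to weakest (10), with 95% Wilson intervals. The coincident share drops steeply from class 1, while the offset share in p63 peaks stays between 5.62% and 11.2%.

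Further ZNF148 peaks were found near a larger share of offset than of coincident sites. Apart from the overlapping peaks themselves, they had on average 1.295 further ZNF148 summits within 10 kb, against 0.227 at coincident sites and 0.607 at p63 peaks without ZNF148. No further ZNF148 summit was found within 10 kb of 52.1% of offset sites (49.6 to 54.5%), 88.1% of coincident sites (86.9 to 89.2%) and 66.5% of p63 peaks without overlap. At least 5 were found near 134 offset sites, 8.10% (6.88 to 9.52%), and near 26 coincident sites, 0.895% (0.611 to 1.31%). The mean number of other p63 peaks within 10 kb was 0.469 at offset sites, 0.118 at coincident sites and 0.342 at p63 peaks without ZNF148. Near the limit the neighbours of both classes were much alike. Sites at 26 to 30 bp had on average 0.518 further ZNF148 summits and 0.181 other p63 peaks, against 0.395 and 0.189 at 21 to 25 bp, and 76.5% and 81.9% of them had no further ZNF148 summit. The mean number of further ZNF148 summits was 0.747 at offset sites up to 50 bp apart and 1.885 at those over 200 bp apart. A coincident site lay within 10 kb of 35 of the 1654 offset sites, 2.12% (1.53 to 2.93%). The same share was not computed for other p63 peaks, so it cannot be called low or high.

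Seen from all p63 peaks, the offset share was higher in each class with more ZNF148 summits nearby, while the coincident share was highest where there were none. Among 14698 p63 peaks with no further ZNF148 summit within 10 kb, 5.86% (5.49 to 6.25%) were offset and 17.4% (16.8 to 18.0%) coincident. With 1 further summit the shares were 7.56% (6.77 to 8.43%) and 5.82% (5.13 to 6.60%). With 2 to 4 they were 14.8% (13.5 to 16.3%) and 3.76% (3.07 to 4.59%), and with 5 to 9 they were 28.9% (24.8 to 33.3%) and 5.40% (3.62 to 7.97%). With 10 or more, over 33 peaks, they were 33.3% (19.75 to 50.4%) and 9.09% (3.14 to 23.6%). The coincident share thus fell up to 2 to 4 summits and was not lower beyond. Expressed over the overlapping p63 peaks, 25.2% (23.7 to 26.7%) of 3421 without a further ZNF148 summit were offset, against 80.8% (77.5 to 83.7%) of 615 with 2 or more. Without chromosomes 17, 19, 22 and X the share was 24.8% with no further summit and 77.7% with 2 to 4, where it was 79.8% with 2 to 4 over all chromosomes.

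The contrast was also present when pairs were grouped by the rank of their weaker peak, and was smallest among the weakest pairs. The rank of the stronger peak was not matched within these groups. Of the pairs with both peaks in the top 10% of their lists, 33 of 854 were offset where no further ZNF148 summit was near, 3.86% (2.76 to 5.38%). With 2 or more further summits it was 24 of 36, 66.7% (50.3 to 79.8%). For pairs whose weaker peak ranked between the top 10% and the top 25% the shares were 14.5% (12.3 to 17.03%) and 85.4% (76.6 to 91.3%). Among pairs whose weaker peak ranked in the last 25%, the shares were 62.5% (57.3 to 67.3%) and 78.7% (71.9 to 84.2%). With 1 further summit the share in that group was 79.8% (71.1 to 86.4%). In the strongest of the 10 p63 classes, 59.3% (56.7 to 61.8%) of peaks with no further ZNF148 summit were coincident and 7.14% (5.93 to 8.57%) offset. With 2 or more, 7.86% (5.38 to 11.3%) were coincident and 26.7% (22.2 to 31.9%) offset. Offset sites with and without such neighbours had similar medians of p63 fold (17.1 and 16.8) and ZNF148 fold (14.7 and 14.4), but their median summit distances were 100 and 55 bp. The classes with many neighbours hold few peaks, so their shares are the least precise.

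**Figure D4:**
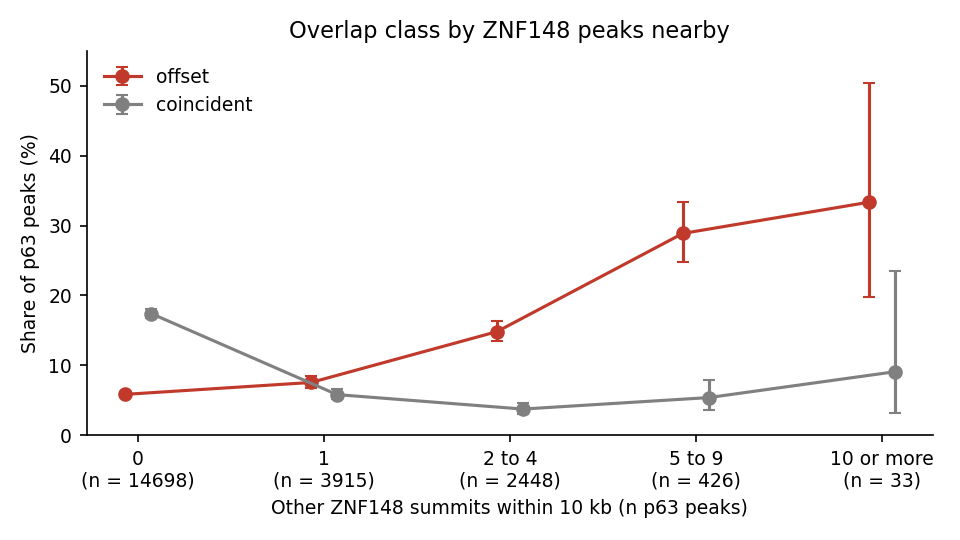
Share of p63 peaks that were offset (red) or coincident (grey), in percent with 95% Wilson intervals, against the number of other ZNF148 summits within 10 kb of the p63 summit. The offset share climbs from 5.86% with none to 28.9% at 5 to 9 summits; the coincident share drops from 17.4% with none to 3.76% at 2 to 4 and is 5.40% and 9.09% in the last classes, of which the last holds 33 peaks.

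The weight of offset sites among the overlaps differed between chromosomes. Offset sites outnumbered coincident ones on 5 of the 23 chromosomes. On chromosome 22 they were 57 of 71 overlaps, 80.3% (69.6 to 87.9%), on chromosome 19 they were 59 of 84, 70.2% (59.8 to 79.0%), and on chromosome 17 they were 94 of 138, 68.1% (59.9 to 75.3%). The others were chromosome 21, with 27 offset and 18 coincident sites, and chromosome 20, with 46 and 41. At the other end stood chromosome 13 with 12 offset against 81 coincident sites, 12.9% (7.54 to 21.2%), chromosome 18 with 15 against 60, and chromosome X with 55 against 215. Chromosomes 22, 19 and 17, which are known as gene-rich, had 2.53, 3.38 and 2.85 ZNF148 peaks for each p63 peak, and chromosomes 13, 18 and X had 1.36, 1.18 and 1.42. Chromosome 21 had a ratio of 1.399 and still an offset share of 60.0% (45.5 to 73.0%) over its 45 overlaps. Median summit distances ran from 37.5 bp on chromosome 13 to 103 bp on chromosome 17.

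**Figure D5:**
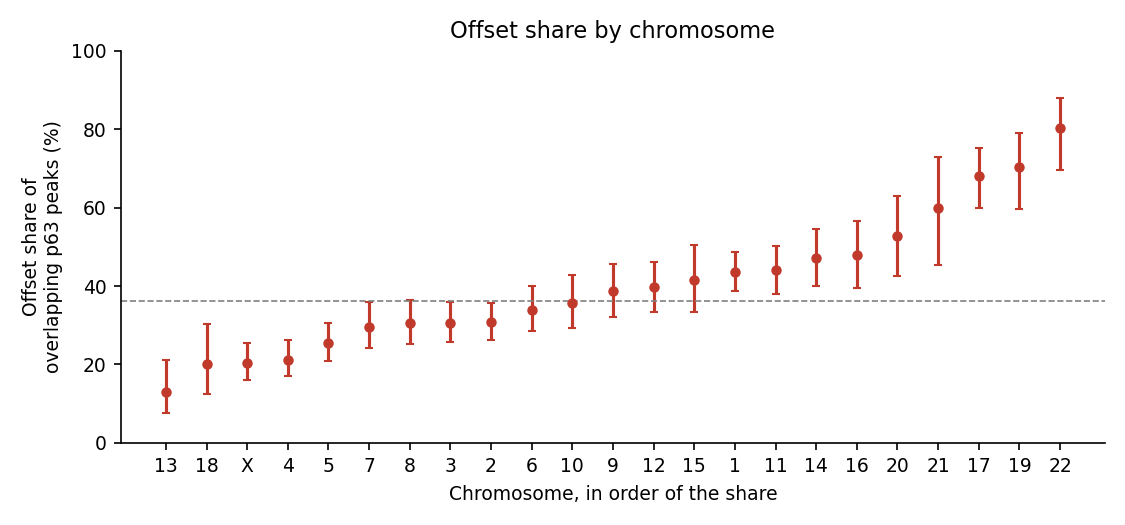
Offset share of the overlapping p63 peaks on each chromosome, in percent with 95% Wilson intervals, ordered by the share; the dashed line is the share over all chromosomes, 36.3%. Chromosomes 17, 19 and 22 stand at the upper end, with intervals wholly above the line, and chromosomes 13, 18, X and 4 at the lower end, wholly below it. The intervals of chromosomes 1, 11, 14, 16, 20 and 21 also lie above the line, and those of 2, 3, 5 and 7 below it.

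The 10 offset sites with the best ranks in both lists combined p63 folds of 22.7 to 98.1 with ZNF148 folds of 46.7 to 76.4. Each summit was covered by the other peak at 9 of them. The leading one was chr9:139518302-139518886, with a p63 fold of 72.9 and a ZNF148 fold of 76.4 at a distance of 42 bp and 6 further ZNF148 summits within 10 kb. At chr3:126050521-126051025 the folds were 72.3 and 65.9 at 26 bp, with no other peak of either protein near. These sites show the range of surroundings, from a dense ZNF148 region to an isolated pair. The highest p63 peak of the whole list, chrX:77359269-77359881, had a fold of 98.1. Its ZNF148 peak, with a fold of 60.7, lay inside the p63 peak and its summit was 35 bp away. At chr22:47023258-47023637 the p63 fold was 35.2 and the ZNF148 fold 61.2, at 32 bp. There the nesting was the other way round, with the p63 peak inside the ZNF148 peak.

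The remaining sites of these 10 included 3 isolated strong pairs, with summits 34 to 138 bp apart. At chr14:40795665-40796051 the p63 fold was 59.0 and the ZNF148 fold 57.1, at 34 bp. At chr16:10688448-10688839 the folds were 62.0 and 46.7, at 67 bp. At chr10:105435827-105436148 they were 60.2 and 55.8, at 138 bp. None of these 3 sites had another peak of either protein within 10 kb, and in each the peaks were staggered. The p63 peak at chr17:70412478-70412866, with a fold of 53.4, lay inside a ZNF148 peak of fold 59.8 whose summit was 140 bp away. At chr14:77499349-77499960 the folds were 30.6 and 58.9 at 240 bp, both intervals held 2 summits, and 8 further ZNF148 summits lay within 10 kb. The last, chr11:65188587-65188986, had folds of 22.7 and 53.9 and a distance of 895 bp, the largest of all offset sites, to the main summit of a ZNF148 interval that held 2 summits.

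Of the 416 offset sites with a p63 fold at least 2 times the ZNF148 fold, 248 had each summit inside the other peak. Over all 1654 offset sites it was 1094, a somewhat larger share. The highest ratio of all was 10.9. Sites were named from the 1250 offset sites with a −log10 q of at least 10 in both lists, where the largest ratio was 10.6, at chr2:129062793-129063157, with a p63 fold of 91.4 and a ZNF148 fold of 8.66 at 234 bp and an overlap of 22 bp. At chr8:144820680-144821021 the folds were 79.1 and 8.28, and this ZNF148 peak lay inside the p63 peak with its summit 31 bp away. Among the 5 highest ratios there, it was the only site with each summit covered by the other peak. The next were chr9:119449341-119449680 (folds 80.8 and 10.1 at 375 bp), chr1:209989318-209989718 (64.9 and 8.43 at 137 bp) and chr9:137263519-137263927 (69.2 and 9.61 at 145 bp). By q value all 5 p63 peaks ranked among the first 93 of their list, and no ZNF148 peak of the 5 ranked better than 15388 in its own.

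Among the 5 offset sites with the largest p63 folds the ZNF148 folds ran from 8.66 to 60.7. Besides the sites on chromosomes X and 2 already given, they were chr17:4757646-4758023 (folds 97.0 and 27.5 at 122 bp), chr11:534581-534973 (96.2 and 17.5 at 132 bp) and chr19:41724381-41724762 (90.7 and 20.2 at 635 bp).

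Of the 5 offset sites with the largest ZNF148 folds, 4 carried weak p63 signal. The largest ZNF148 fold, 127.2, belonged to chr1:211432266-211432823, where a p63 peak of fold 18.9, chr1:211432178-211432430, peaked 240 bp from the ZNF148 summit. On chromosome 14 the p63 peaks at chr14:77494884-77495057 and chr14:77474298-77474454 had folds of 6.68 and 5.27. Both lay inside ZNF148 peaks, of fold 110.03 and 103.8, with summits 259 and 27 bp away. The other ones were chr2:232574955-232575147 (p63 fold 8.01, ZNF148 fold 92.8, 75 bp) and chr16:30107481-30107637 (6.38 and 90.8, 84 bp). The p63 peaks here were 157 to 253 bp long, and 4 of the 5 had a fold below the first quartile of offset p63 peaks, 9.74. Low ratios were likewise ranked among the 1250 offset sites with a −log10 q of at least 10 in both lists. The 5 lowest ratios of p63 to ZNF148 there comprised 3 of these sites, with chr11:65339604-65339811 (4.90 and 62.0 at 114 bp) and chr22:46283417-46283630 (5.95 and 74.0 at 227 bp). The site at chr16:30107481-30107637 had a ratio of 0.0702, but its p63 −log10 q of 9.36 was below that limit.

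The 5 largest distances, 635 to 895 bp, all involved ZNF148 intervals with 2 to 4 summits. Besides the sites on chromosomes 11 and 19 above, these were chr16:81480239-81480399 (780 bp, with 4 ZNF148 summits in the interval), chr9:140172235-140172384 (761 bp, 3 summits) and chr14:69258464-69258832 (674 bp, 3 summits). In none of the 5 did each summit lie inside the other peak. The distance was measured to the most significant ZNF148 summit.

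Single ZNF148 peaks with several offset p63 peaks were rare. The 1654 offset p63 peaks fell on 1648 ZNF148 peaks, of which 6 held 2 offset p63 peaks and 3 held an offset and a coincident one. At chr6:42858112-42858749 a ZNF148 peak of fold 18.1 was overlapped by p63 peaks with folds of 14.1 and 53.8, whose summits lay 190 and 478 bp to either side of its own. At chr5:76107294-76107561 the ZNF148 fold was 5.77 and the p63 folds were 8.06 and 7.06. At chr5:174771711-174771882 the ZNF148 fold was 10.3 and the p63 folds were 5.59 and 12.1. In all 3 the ZNF148 summit lay between both p63 summits.

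Most offset sites had no other offset site close by. With a gap of no more than 12500 bp between neighbouring offset sites, 1459 stood alone and 195, or 11.8%, fell into 91 groups of at least 2, of which 10 groups held 3 or 4. Coincident and other p63 peaks were not counted as neighbours here. The same share was not computed for those peaks, so it cannot be called low or high. Groups of 4 were found at chr17:39807776-39817258, chr3:50184077-50195639 and chr10:74079749-74092048, regions named here after their values were seen. The first held 7 ZNF148 peaks and offset p63 folds of 8.73 to 40.5. The second also held 7 ZNF148 peaks, with p63 folds of 15.9 to 63.6, and the third held 5, with folds of 9.07 to 55.4. None of the 3 contained a coincident site, and every p63 peak in them was offset. The groups of 3 held no coincident site either. Each of the named regions held 4 p63 peaks, and 13.5% of all p63 peaks were coincident, so the absence cannot be called unusual.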

How the data were processed

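ChIP-seq peak lists of 1 p63 and 1 ZNF148 library from FaDu cells were used; no list of the input library was used. The build hg19 and the tools MACS2 2.2.6, Bowtie2 2.3.4.3 and SAMtools 1.7 are listed in the submitters' processing notes, without roles or settings. For the control, duplicate handling and read filters, the methods are not given in the sources used here. Both deposited lists have no header and were read in narrowPeak order. The fold enrichment ratio, the −log10 p and q values and the summit are the authors' deposited values; the deposited score was not used. Sites with a −log10 q below 3.01 (p63) or 3.02 (ZNF148) are not in the lists. Read depth is unknown.

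Rows on chromosomes 1 to 22 and X with the same start and end were joined, keeping the row of highest −log10 q. This left 21520 of 21922 p63 and 37883 of 39669 ZNF148 rows. The ZNF148 fold of a site is that of the peak with the longest overlap. Overlap counts were checked with bedtools 2.31.1, and the class assignment was tested on simulated data. Python 3.11.15, numpy 2.4.6, pandas 2.3.3 and scipy 1.17.1 were used.

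The members, classes and comparisons were chosen with earlier results of these data known. Named sites were the 10 with the best worse rank, the 5 with the largest p63 fold, ZNF148 fold, distance, and highest and lowest fold ratio, and the first 3, in chromosome order, of the 6 ZNF148 peaks that held 2 offset p63 peaks. Fold ratios were ranked among sites with a −log10 q of at least 10 in both lists. Motif content and gene annotation had been planned and were not run, since no hg19 sequence or annotation was used here. Regions prone to mapping artifacts were not removed. Alternatives were stricter q and fold limits, other overlap and distance limits, other uses of summits and lists of equal length.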

Additional observations from a re-analysis of the deposited data

Results flagged for a closer look

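Overlaps outside chromosomes 1 to 22 and X entered no comparison above. There, 26 of 166 p63 peaks, 15.7%, were offset by the same definition and 46 were coincident, where 7.69% of p63 peaks on the analysed chromosomes were offset. They are given because they lie outside the data compared, and the difference was not tested. Of the 26 offset peaks, 18 lay on 1 unplaced contig, gl000220, known to hold ribosomal DNA repeats. Their median folds over all 26 were 2.68 for p63 and 9.19 for ZNF148, against 16.8 and 14.4 on the analysed chromosomes.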

How the results depend on the processing

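Across 14 alternative settings, 8 values were recomputed 100 times in all; 62 remained inside the reported value's counting interval (for the number of sites, within 1.5 times) and 38 did not. The number of offset sites, 1654, became 1034 when the overlap had to cover 50% of both peaks and 2842 with a limit of 10 bp; both follow from how these settings select sites.

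The share of p63 peaks that were offset, 7.69%, became 6.46% with a −log10 q of at least 10, 6.36% with an overlap of 50% of the shorter peak, 4.80% with 50% of both, 5.13% and 13.2% with limits of 50 and 10 bp, 5.91% with lists of equal length and 7.15% without intervals of several summits. The median p63 fold became 19.2 with the q limit, 18.8 with 50% of both, 20.8 with 10 bp and 18.0 with equal lists. The median ZNF148 fold became 17.2 with the q limit, 15.3 with 50% of the shorter peak, 13.3 and 18.0 with 50 and 10 bp and 17.8 with equal lists. The median distance became 60.0 bp and 52 bp with the stricter overlaps and 111 and 33 bp with limits of 50 and 10 bp. The p63 fold was the higher at 58.5% of sites, which became 55.4% with the q limit, 62.9% with 50% of both and 49.4% with equal lists, the last with an interval of 46.6 to 52.1%; equal lists leave out the weakest ZNF148 peaks.

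Without further ZNF148 summits nearby, the offset share of overlaps, 25.2%, became 22.6% with the q limit, 22.4% and 19.5% with the stricter overlaps, 13.9% and 54.8% with 50 and 10 bp, 23.4% with equal lists, and 27.5% and 18.8% with neighbours counted within 5 and 50 kb. With 2 or more it was 80.8%, and became 76.9% and 71.4% with the stricter overlaps, 65.9% and 92.8% with 50 and 10 bp and 63.3% within 50 kb. It was the higher of both shares under all 14 settings. Leaving out intervals of several summits and the 5 and 50 kb windows were chosen after the data were seen, as was comparing neighbour classes under the planned settings. No paired analysis was possible because each antibody has 1 list. For the other shifts the cause was not tested.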
